A study of Mus musculus with 6 samples.

Results

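Cytochrome P450 genes were examined for DNA methylation in GS cells, which are cultured mouse spermatogonia that include spermatogonial stem cells. The study asked whether cells kept frozen on the International Space Station differ from cells kept frozen on Earth. It compared 3 replicates of Space GS cells, cryopreserved for 6 months on the station, with 3 replicates of Ground GS cells, cryopreserved for 6 months on Earth. All 6 samples carried the genotype DBA/Tg14(act-EGFP-OsbY01), a ubiquitously expressed EGFP transgene bred from C57BL6 into the DBA/2 background, and both groups were thawed and cultured with self-renewal factors on feeder fibroblasts before genomic DNA was collected. The labels call the samples biological replicates of one genotype and give no animals for them, so the spread between samples may be partly technical. Reduced representation bisulfite sequencing (RRBS) was used, which reads CpG-rich fragments after bisulfite has converted unmethylated cytosines, and every read that covers a CpG site then shows it as methylated or not.

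The table assigns each CpG site to the gene with the nearest transcription start site (TSS) and gives the distance, which does not show that a distant site acts on that gene. Members were all sites whose gene name was Cyp followed by a number, a letter, and a number, at any distance. Of 2268080 listed sites, 3957 named one of 94 such genes, and 839 of these sites had at least 10 reads in all 6 samples, among 681804 such sites in the whole table. These 839 commonly covered sites lay in 79 of the 94 genes. Cyp2 had 242 sites in 40 genes, Cyp3 had 43 sites in 6 genes, Cyp4 had 135 sites in 14 genes, and the steroid and sterol enzymes, with the vitamin D enzymes Cyp24a1 and Cyp27b1, had 120 sites in 12 genes. The remaining 299 sites named Cyp1a1, Cyp1a2, Cyp1b1, Cyp20a1, Cyp26a1, Cyp26b1, and Cyp26c1, which are called the other members here. Among the 15 genes without a commonly covered site were Cyp11b1, Cyp39a1, Cyp3a13, Cyp4a10, and Cyp4a14. A further 10 genes, such as Cyp51 and Cyp4a12a, did not match the name rule, and their 77 commonly covered sites were left out.

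Cytochrome P450 enzymes are heme proteins that insert oxygen into their substrates, and they take their electrons from partner proteins such as P450 oxidoreductase and ferredoxin. Many Cyp2 and Cyp3 enzymes oxidize drugs and other foreign compounds in the liver, and many Cyp4 enzymes hydroxylate fatty acids and their derivatives. Other members make or clear endogenous signals, including steroid hormones, bile acids, vitamin D, and retinoic acid, the signal that drives spermatogonia to differentiate. In mammals, CpG-rich promoters are typically unmethylated, while isolated CpG sites between and within genes are mostly methylated.

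Few cytochrome P450 sites lay near a TSS. Sites within 1 kb made up 194 of the 839 sites (23.1%), compared with 57.3% of all other commonly covered sites, and they came from 19 genes. Cyp3 had 0 listed sites within 1 kb. To describe the sequence near the TSS, promoters were taken by symbol from RefSeq (GRCm38.p6). Of the 94 genes, 72 had an entry of 300 bases, which does not cover 1 kb on both sides of a TSS. The median number of CpG dinucleotides was 3 per cytochrome P450 promoter and 7 over all 27025 promoters. CCGG, the palindromic site cut by the enzyme MspI that is used in RRBS, which itself contains a CpG, was present in 22 of 72 cytochrome P450 promoters (30.6%), compared with 52.6% of all promoters. By coverage, CCGG was present in 9 of 14 members with a commonly covered site within 1 kb and in 13 of 58 members without one. Cyp26a1 had 0 CCGG in its promoter entry and 16 commonly covered sites within 1 kb. In the Cyp3 promoters, 0 of 7 contained CCGG, and the number of CpG dinucleotides ranged from 0 to 2. Whether these contents account for the few sites near a TSS was not tested.

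The 250 bases upstream of the RefSeq start are shown for 5 members with CpG-rich promoters and commonly covered sites within 1 kb and for 3 members with CpG-poor promoters and no commonly covered site within 1 kb, 5′ to 3′ on the strand of the gene. Capitals mark CpG dinucleotides.
Cyp2r1, chr7:114562973-114563222, minus strand: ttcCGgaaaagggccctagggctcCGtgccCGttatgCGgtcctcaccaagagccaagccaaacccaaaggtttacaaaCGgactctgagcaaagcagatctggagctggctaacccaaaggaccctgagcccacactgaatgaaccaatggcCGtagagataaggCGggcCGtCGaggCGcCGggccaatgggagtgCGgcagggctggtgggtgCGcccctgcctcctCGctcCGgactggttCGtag
Cyp4v3, chr8:45333164-45333413, minus strand: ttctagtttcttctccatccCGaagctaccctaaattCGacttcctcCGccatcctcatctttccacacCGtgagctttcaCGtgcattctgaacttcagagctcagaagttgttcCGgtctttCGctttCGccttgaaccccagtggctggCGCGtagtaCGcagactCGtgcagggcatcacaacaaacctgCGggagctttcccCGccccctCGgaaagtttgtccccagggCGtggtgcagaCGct
Cyp4f39, chr17:32452473-32452722, plus strand: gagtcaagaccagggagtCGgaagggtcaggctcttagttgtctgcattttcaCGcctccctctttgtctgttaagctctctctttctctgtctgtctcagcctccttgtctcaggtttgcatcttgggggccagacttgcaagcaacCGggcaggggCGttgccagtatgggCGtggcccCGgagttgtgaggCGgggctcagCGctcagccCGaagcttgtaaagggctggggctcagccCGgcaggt
Cyp46a1, chr12:108334066-108334315, plus strand: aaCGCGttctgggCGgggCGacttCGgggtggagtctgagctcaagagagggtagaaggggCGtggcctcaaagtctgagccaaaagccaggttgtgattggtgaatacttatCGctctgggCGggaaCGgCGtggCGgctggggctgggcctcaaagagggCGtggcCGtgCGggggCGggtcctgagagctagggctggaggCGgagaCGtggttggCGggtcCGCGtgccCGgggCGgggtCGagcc
Cyp26a1, chr19:37697558-37697807, plus strand: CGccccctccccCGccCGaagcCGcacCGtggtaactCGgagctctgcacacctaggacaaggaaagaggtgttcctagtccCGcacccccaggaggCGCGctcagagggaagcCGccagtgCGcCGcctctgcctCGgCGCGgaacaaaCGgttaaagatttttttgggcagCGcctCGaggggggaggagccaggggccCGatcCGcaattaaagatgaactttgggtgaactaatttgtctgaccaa
Cyp11a1, chr9:57997774-57998023, plus strand: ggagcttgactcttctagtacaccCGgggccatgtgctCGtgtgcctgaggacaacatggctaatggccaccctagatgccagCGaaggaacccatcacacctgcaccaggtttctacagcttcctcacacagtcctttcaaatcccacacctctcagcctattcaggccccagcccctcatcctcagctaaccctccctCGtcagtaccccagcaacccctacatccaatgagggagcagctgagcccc
Cyp3a11, chr5:145879855-145880104, minus strand: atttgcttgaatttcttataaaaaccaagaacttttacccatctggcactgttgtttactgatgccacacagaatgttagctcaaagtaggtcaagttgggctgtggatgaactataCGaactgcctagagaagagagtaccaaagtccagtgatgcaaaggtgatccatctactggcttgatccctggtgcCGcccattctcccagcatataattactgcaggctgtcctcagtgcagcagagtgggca
Cyp2c66, chr19:39113648-39113897, plus strand: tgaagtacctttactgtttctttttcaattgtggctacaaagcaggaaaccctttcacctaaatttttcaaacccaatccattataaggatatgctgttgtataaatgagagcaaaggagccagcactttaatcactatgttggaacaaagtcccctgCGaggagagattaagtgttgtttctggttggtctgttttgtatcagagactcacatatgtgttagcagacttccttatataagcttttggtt

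The first 5 of these stretches contained 16, 17, 10, 23, and 20 CpG dinucleotides, and the last 3 contained 4, 2, and 1. The positions of the table are in mm39, another build, so sites were placed in these sequences only where the spacing of all listed sites that fell in the window matched CpG dinucleotides at a single offset. In Cyp2r1, a vitamin D hydroxylase, 3 commonly covered sites fell in the stretch shown, and 0.637, 1.90, and 2.84% of their reads were methylated in Space 1 to 3 and 0.735, 0, and 2.56% in Ground 1 to 3. In Cyp4f39, a fatty acid hydroxylase of the skin barrier, 5 such sites had 1.60, 0.935, and 2.18% in Space GS cells and 4.27, 1.50, and 2.39% in Ground GS cells. In Cyp4v3, another fatty acid hydroxylase, 5 such sites had 4.12, 0.952, and 0% in Space GS cells and 4.35, 10.5, and 0.625% in Ground GS cells. The groups overlapped in all 3 genes. In Cyp46a1, 0 commonly covered sites fell in the stretch shown, and the 16 sites of Cyp26a1 within 1 kb lay 141 to 425 bp downstream of the TSS of the table, so no methylation level is given for these 2 stretches.

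Most cytochrome P450 promoters that were measured were unmethylated. Among 194 sites within 1 kb, 182 had a level under 10%, where a level is the percent of methylated reads averaged over the 6 samples. The 12 exceptions were 6 sites of Cyp26c1, 3 sites of Cyp2w1, and 1 site each of Cyp21a1, Cyp4f14, and Cyp4f40. Of 13 genes with at least 3 sites within 1 kb, 11 were under 10%, with Cyp46a1 the lowest at 0.765%. The mean level over sites was 7.04%, compared with 2.45% for all other sites within 1 kb, whereas the medians were 2.01% and 1.53%. The difference between the means was 4.59 percentage points, ranged from 3.83 to 5.14 over the samples, and had the same direction in 6 of 6 samples (exact sign-flip permutation test, two-sided; p = 0.03125, which is the lowest value possible with 6 samples). This test covers the spread between libraries only, since the sites and genes were the same in every library.

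**Figure D1:**
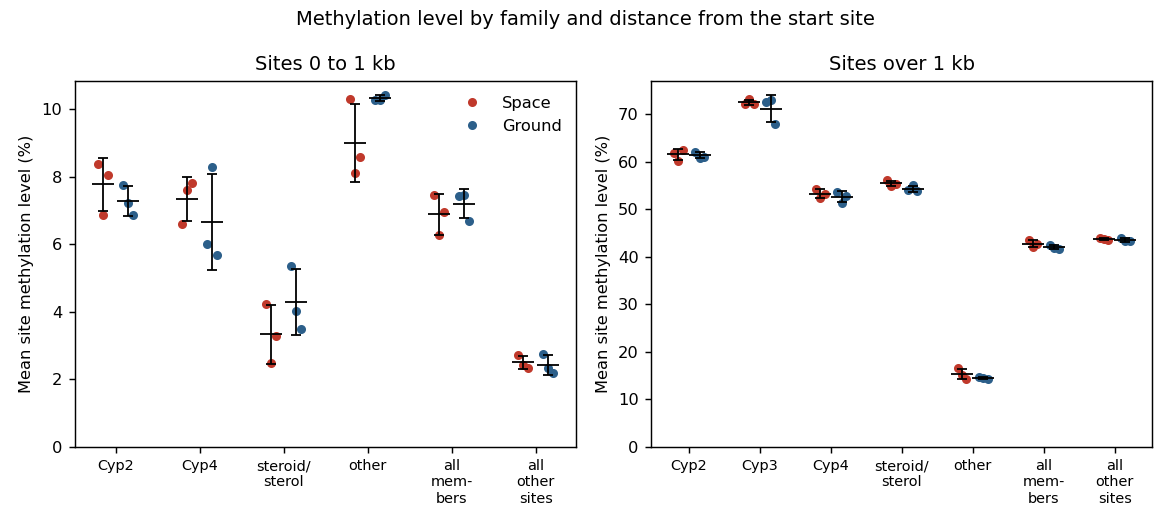
Mean methylation level (%) of commonly covered sites by family, for sites within 1 kb (left) and over 1 kb (right) from the TSS. Each point is 1 sample, and black lines are the mean ± SD of 3 replicates; the other members are the highest family within 1 kb and the lowest over 1 kb, and Space and Ground overlap in every family.

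Mean levels of the commonly covered sites over 1 kb from a TSS differed between families. The mean level over 6 samples was 71.8% in Cyp3, 61.4% in Cyp2, 54.8% in steroid and sterol enzymes, 52.9% in Cyp4, and 14.9% in the other members. All 10 family pairs of this class differed in the same direction in 6 of 6 samples (exact sign-flip permutation test, p = 0.03125, adjusted p = 0.0333 over 16 pairs in both classes). Here too, the test covers the spread between libraries only, since every library read the same sites and genes. It does not cover the spread between the genes of a family. The narrowest pair was Cyp4 against steroid and sterol enzymes, at -1.93 ± 1.22 percentage points (SD, n = 6), and it turned to 22.9 when 20 reads were required per site. Cyp2 was 10.4 percentage points below Cyp3, but it was 6.56 above it when each gene was weighted equally. With a border of 2 kb, Cyp2 minus steroid and sterol enzymes turned from 6.56 to -9.93. Cyp3 minus steroid and sterol enzymes, at 17.0, was no longer called with that border (0.669) or with genes weighted equally (-0.874).

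Within 1 kb, the mean level was 9.65% in the other members, 7.52% in Cyp2, 6.999% in Cyp4, and 3.80% in steroid and sterol enzymes. The medians over sites were 1.96, 1.76, 2.63, and 1.97% in the same order of families, so the ranking of the means did not hold for them. By their means, Cyp2 and Cyp4 were not distinguishable (0.525 ± 1.25 percentage points, 4 of 6 samples, exact sign-flip permutation test, adjusted p = 0.344). The remaining 5 pairs had the same direction in 6 of 6 samples, at adjusted p = 0.0333 by this exact test, which again covers libraries only. However, each of these 5 pairs lost its call or turned under at least 1 other coverage minimum, weighting, or border.

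Intermediate levels were most frequent in Cyp3 and Cyp2. Levels from 10 to 90% were found at 81.4% of Cyp3 sites and 52.1% of Cyp2 sites over 1 kb, compared with 32.6% in Cyp4, 23.9% in steroid and sterol enzymes, 8.91% in the other members, and 16.5% of all other sites over 1 kb. Many Cyp2, Cyp3, and Cyp4 genes lie in clusters of related genes, while some, such as Cyp2u1 and Cyp2w1, lie apart from the other Cyp2 genes. The way the authors' alignment treated reads that match several genes is not given in the sources used here. Values of single genes in these clusters are therefore uncertain. Whether this bears on the intermediate levels was not tested. Dense groups of sites were mostly unmethylated. Regions were defined as runs of 3 or more sites with gaps of at most 100 bp. Over 1 kb, 14 cytochrome P450 regions had 10 or more sites, and 11 of them were under 10%, whereas 71 regions had 3 to 9 sites, and 17 of them were under 10%. Among all other regions over 1 kb, these shares were 85.1% and 25.8%. Most of the 11 low regions with 10 or more sites were in Cyp26 and Cyp1 genes. Among Cyp2 genes, Cyp2s1 had a low region of this size, whereas those of Cyp2c66 and Cyp2j8 had intermediate levels.

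The difference from the remaining genome depended on distance. Cytochrome P450 sites had 5.84% within 250 bp, compared with 2.13% at all other sites of that distance, and 14.3% compared with 3.52% at 501 to 1000 bp. The 14.3% rested on only 15 sites in 5 genes and ranged from 10.9 to 20.3% over the samples. It depended on 1 site of Cyp4f40 at 94.6% and 1 site of Cyp26c1 at 78.3%. Cytochrome P450 sites were lower at 1001 to 2000 bp (4.96% compared with 11.2%), at 5001 to 10000 bp (30.3% compared with 40.9%), and over 50000 bp (55.0% compared with 61.0%). They were higher at 2001 to 5000 bp (35.9% compared with 29.6%) and at 10001 to 50000 bp (62.5% compared with 52.4%). Few genes made up some of these bins. The 85 sites at 1001 to 2000 bp came from 8 genes, with 31 in 1 low region of Cyp26a1, 23 in 1 of Cyp1b1, and 13 in Cyp27b1. The 163 sites at 5001 to 10000 bp included 16 low sites of Cyp1a1 and low regions of 25 and 18 sites of Cyp26b1. Over all sites beyond 1 kb, members had 42.4% and other sites had 43.6%, a difference of -1.24 percentage points in the same direction in 6 of 6 samples (exact sign-flip permutation test, p = 0.03125). This direction did not hold when sites were compared within distance bins, in which the difference was 0.977.

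**Figure D2:**
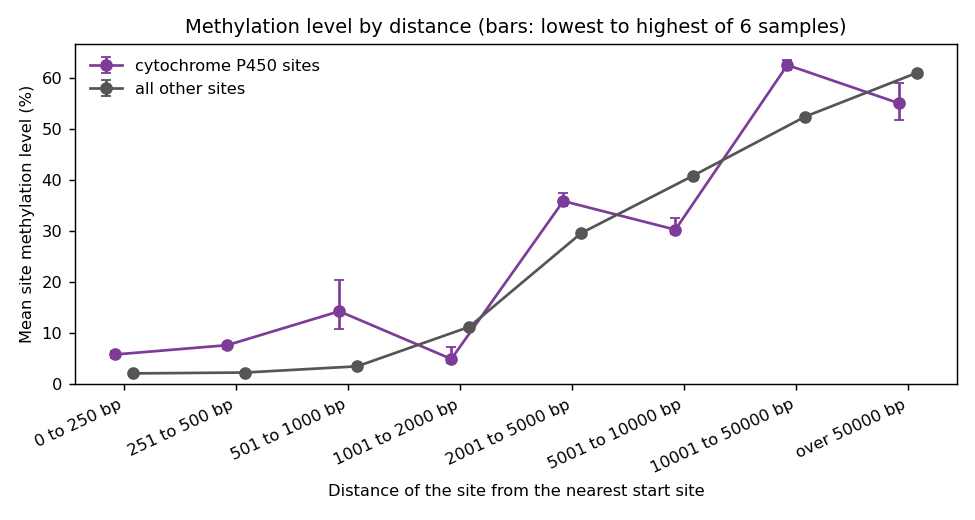
Mean methylation level (%) of cytochrome P450 sites and of all other commonly covered sites by distance from the nearest TSS. Points are means over 6 samples and bars run from the lowest to the highest sample; cytochrome P450 sites lie above the others up to 1000 bp, at 2001 to 5000 bp, and at 10001 to 50000 bp, and below them at 1001 to 2000 bp, at 5001 to 10000 bp, and over 50000 bp.

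No difference between Space and Ground GS cells was detected in any family. Within 1 kb, all members had 7.45, 6.26, and 6.94% in Space 1 to 3 and 7.43, 7.46, and 6.70% in Ground 1 to 3, and the groups overlapped. The means were 6.88% ± 0.599 (SD, n = 3) and 7.20% ± 0.433 (SD, n = 3; exact permutation test, two-sided, p = 0.6). Over 1 kb, they had 43.4, 42.1, and 42.5% in Space GS cells and 42.5, 41.9, and 41.6% in Ground GS cells, again with overlap (42.7% ± 0.707 and 42.0% ± 0.472, SD, n = 3; exact permutation test, p = 0.2). With 3 samples against 3, this test cannot give a p below 0.1.

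By family, the Space minus Ground difference over 1 kb was 0.195 percentage points in Cyp2, 1.35 in Cyp3, 0.638 in Cyp4, 1.20 in steroid and sterol enzymes, and 0.799 in the other members. Within 1 kb, it was 0.490 in Cyp2, 0.687 in Cyp4, -0.953 in steroid and sterol enzymes, and -1.32 in the other members. The exact permutation p ranged from 0.2 to 0.9 over these 9 values, and the groups overlapped in all 9. All other sites of the table differed by 0.0799 within 1 kb and 0.135 over 1 kb.

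The steroid hormone enzymes were mostly methylated at the sites assigned to them. Cyp17a1, which converts progestins to androgens, had 96.7, 93.3, and 92.3% in Space GS cells and 89.1, 99.0, and 98.7% in Ground GS cells over 4 sites 2099 to 2126 bp from its TSS (chr19:46661611, mm39). Cyp11a1, which cleaves the side chain of cholesterol to start steroid synthesis, had 87.9, 79.4, and 81.5% in Space GS cells and 75.3, 74.3, and 82.4% in Ground GS cells over 4 sites 4233 to 11510 bp away. The 2 groups overlapped in both genes, with means of 82.9% ± 4.46 and 77.3% ± 4.41 (SD, n = 3) in Cyp11a1 (exact permutation test, p = 0.3). Cyp11b2, the aldosterone synthase, had means of 94.1% ± 2.80 and 91.0% ± 2.77, and Cyp19a1, the aromatase that makes estrogens, had 78.3% ± 3.63 and 75.2% ± 5.74 (SD, n = 3, Space and Ground). The 3 sites of Cyp19a1 were unlike one another, with mean levels of 10.02, 99.4, and 99.2%.

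Cyp21a1, a steroid hydroxylase of the adrenal cortex, had a fixed pattern in 1 region. Of 3 sites 10996 to 11040 bp from its TSS (chr17:35012494-35012539, mm39), 1 site had 0 methylated reads of 75 over the 6 samples, which allows a share of up to 4%, and the neighboring sites had 75 of 75. The level of the region was therefore 66.7% in every sample. Another region of Cyp21a1, 4039 to 4086 bp away, had 54.4, 53.8, and 44.9% in Space GS cells and 47.6, 57.9, and 61.7% in Ground GS cells. A site with 0 methylated reads beside methylated sites was also found in Cyp2c38, where 0 of 136 reads were methylated at 1 site, which allows up to 2.21%, and the mean levels of 2 neighboring sites were 91.7 and 95.8%. These limits cover counting error only, since the reads carry no molecular identifiers. The DNA sequence of these cells, which are of DBA/2 background, was not read at the sites with 0 methylated reads. Whether a CpG is present there was therefore not tested, and the region level of 66.7% depends on it.

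Among the bile acid and cholesterol enzymes, Cyp46a1 and Cyp7b1 had commonly covered promoter sites, and both promoters were under 10%. Cyp46a1, which clears cholesterol from the brain, had 0.810, 0.723, and 0.803% in Space GS cells and 0.769, 1.26, and 0.224% in Ground GS cells over 14 promoter sites, and 29.7% ± 1.49 and 26.3% ± 3.23 (SD, n = 3) over 9 sites beyond 1 kb. Cyp7b1, an oxysterol hydroxylase, had 2.17, 0, and 0.645% in Space GS cells and 5.90, 3.00, and 0.402% in Ground GS cells over 9 promoter sites, and the groups overlapped. Beyond 1 kb, it had 88.3% ± 0.104 and 86.5% ± 4.40 (SD, n = 3). Cyp8b1, which is needed for cholic acid, had 91.8% ± 2.64 and 88.8% ± 5.42 (SD, n = 3) beyond 1 kb. Cyp7a1, the rate-limiting enzyme of bile acid synthesis, had 5.94% ± 3.29 and 6.01% ± 2.89 (SD, n = 3) over 7 sites 2910 to 3111 bp from its TSS.

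The vitamin D enzymes had low levels around their start sites. Cyp24a1, which inactivates vitamin D, had 2.99, 0.446, and 1.60% in Space GS cells and 4.47, 2.10, and 2.22% in Ground GS cells over 23 promoter sites. Cyp27b1, which activates vitamin D, had 3.63, 1.24, and 4.73% in Space GS cells and 0.849, 1.54, and 3.93% in Ground GS cells over 13 sites 1393 to 1567 bp away. The groups overlapped in both genes. Among all 10 steroid and sterol genes with at least 3 sites beyond 1 kb, 2 were under 10%, 5 were between 10 and 90%, and 3 were over 90%.

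The retinoic acid hydroxylases Cyp26a1, Cyp26b1, and Cyp26c1, which degrade retinoic acid, contributed 225 of the 839 sites. Cyp26b1, which keeps retinoic acid away from male germ cells in the fetal testis, alone had 129 sites, none of them within 1 kb of its TSS (chr6:84570890, mm39). Its 104 sites 3376 to 10103 bp downstream had a mean level of 2.24%, and its 15 sites 16994 to 19548 bp downstream had 89.99%. Upstream, 10 sites 119653 to 151916 bp away had 88.5%. The low stretch had 4.80, 2.18, and 1.03% in Space GS cells and 2.31, 1.54, and 1.57% in Ground GS cells, with Space 1 the highest and Space 3 the lowest sample. The highly methylated downstream stretch had 86.98, 89.9, and 88.2% in Space GS cells and 93.0, 91.9, and 89.9% in Ground GS cells, so the groups overlapped only narrowly.

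**Figure D3:**
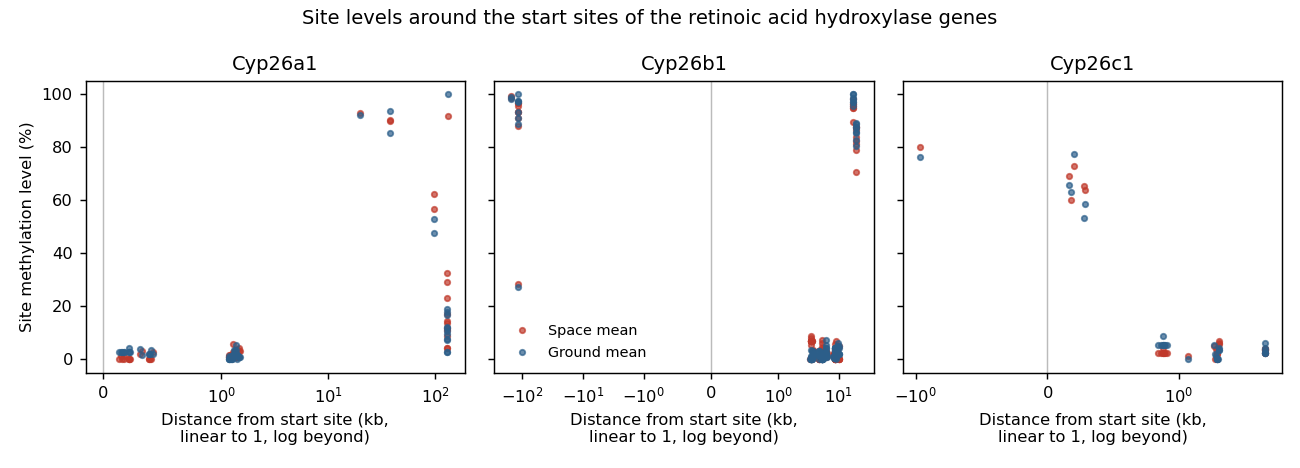
Methylation level (%) of each commonly covered site of Cyp26a1, Cyp26b1, and Cyp26c1 against its distance from the TSS in kb (linear up to 1 kb, logarithmic beyond, upstream negative). Points are means of 3 Space or 3 Ground replicates; sites of Cyp26b1 change from low to high levels between 10103 and 16994 bp downstream, and sites of Cyp26c1 near the TSS have intermediate levels.

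Cyp26a1 had 16 promoter sites, and its level was 1.01, 0.575, and 0.535% in Space GS cells and 0.629, 1.01, and 6.50% in Ground GS cells, with Ground 3 apart from the other samples. Ground 3 had 8.33% at each site from 141 to 232 bp and 6.25% at each site from 387 to 425 bp. The same few methylated reads may therefore be counted at several sites. A region 128604 to 128730 bp away ranged from 2.54 to 27.3% between samples of the same group. Cyp26c1 was the only gene with at least 3 promoter sites whose promoter was intermediate, with 42.5, 35.8, and 45.4% in Space GS cells and 43.0, 52.4, and 38.5% in Ground GS cells over 14 sites. The means were 41.2% ± 4.92 and 44.6% ± 7.09 (SD, n = 3; exact permutation test, p = 0.5). These 14 sites were not uniform. A region 164 to 284 bp from the TSS had 59.0 to 75.2% in the 6 samples, whereas a region 843 to 909 bp away had 0 to 16.7%.

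Among the targets of the aryl hydrocarbon receptor, which are induced by dioxin-like compounds, all 3 genes had low levels over 1 kb. Cyp1a1 had 4.41, 2.67, and 2.55% in Space GS cells and 1.93, 1.40, and 0.806% in Ground GS cells over 16 sites 8408 to 8998 bp from its TSS (chr9:57595211, mm39), and the groups did not overlap (3.21% ± 1.04 and 1.38% ± 0.563, SD, n = 3; exact permutation test, p = 0.1, the smallest it can give). Cyp1a2 had 2.86% ± 1.83 and 2.96% ± 2.39, and Cyp1b1 had 5.94% ± 3.10 and 4.995% ± 1.50 (SD, n = 3, Space and Ground). Cyp20a1, an orphan member with no established substrate, had 1.85, 0.706, and 1.04% in Space GS cells and 1.92, 3.06, and 2.65% in Ground GS cells over 22 promoter sites, again without overlap (exact permutation test, p = 0.1).

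**Figure D4:**
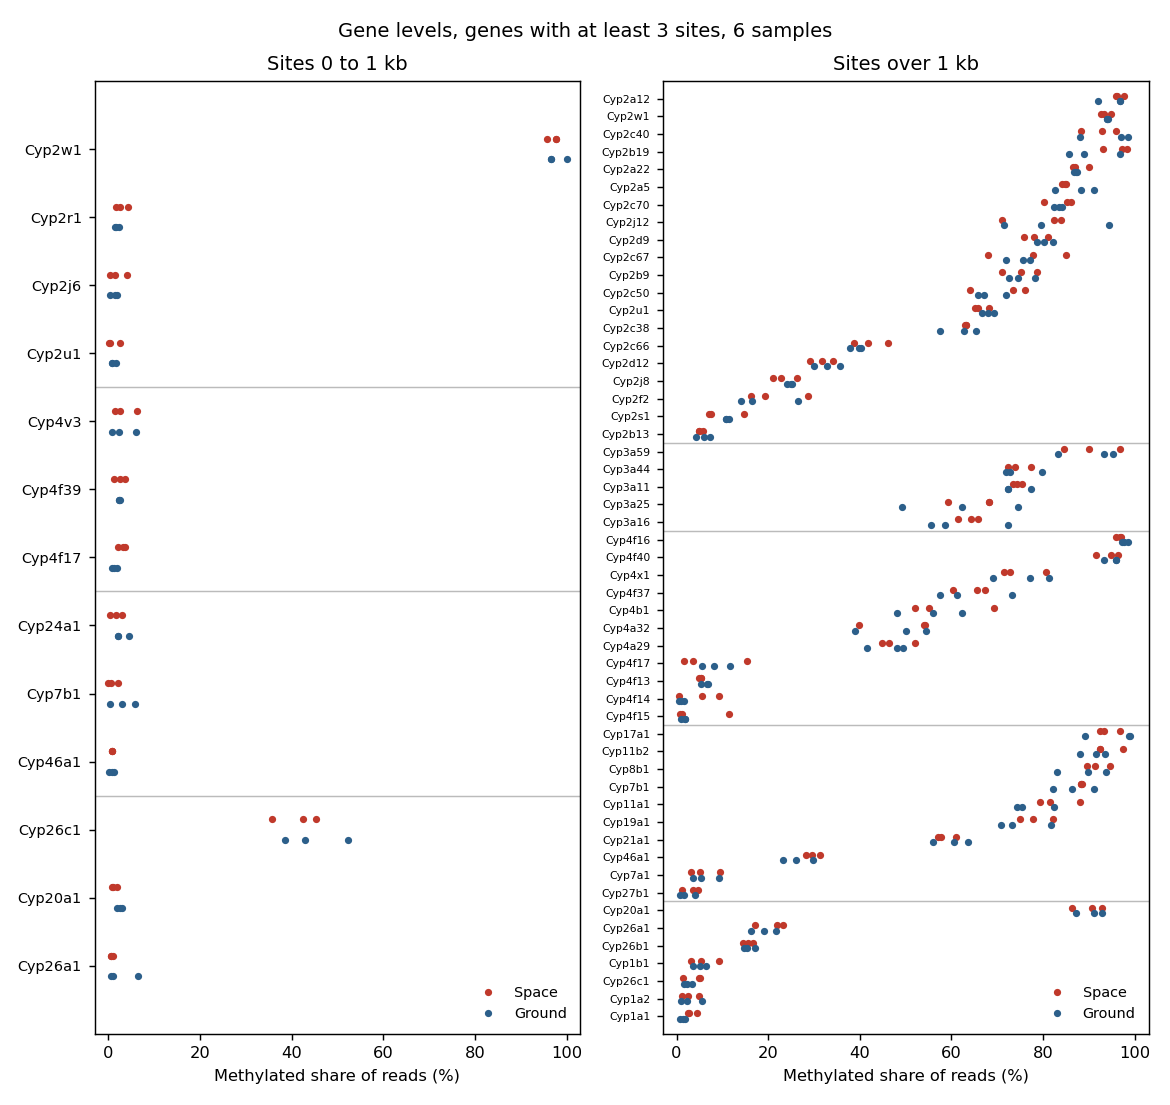
Methylated share of reads (%) of each cytochrome P450 gene with at least 3 commonly covered sites within 1 kb (left, 13 genes) or over 1 kb (right, 53 genes) from the TSS. Each point is 1 sample, and gray lines separate the families, from top to bottom Cyp2, Cyp3 (right only), Cyp4, steroid and sterol, and other members; Cyp2w1 and Cyp26c1 stand apart within 1 kb.

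Among Cyp2 genes, 4 had at least 3 promoter sites. Cyp2r1 had 4.20, 1.75, and 2.46% in Space GS cells and 2.24, 1.40, and 1.78% in Ground GS cells over 21 sites, and Cyp2u1, a fatty acid hydroxylase, and Cyp2j6, a member of the arachidonic acid epoxygenase family, were at 1.05% and 1.60% over the 6 samples. Cyp2w1 was the exception, with 97.8, 97.8, and 95.7% in Space GS cells and 100, 96.6, and 96.7% in Ground GS cells over 3 sites. Beyond 1 kb, 20 Cyp2 genes ranged from 5.49% in Cyp2b13 to 95.9% in Cyp2a12. In the Cyp2c cluster, Cyp2c70 had 83.8% ± 3.21 and 83.4% ± 0.875 over 20 sites, and Cyp2c66 had 42.2% ± 3.78 and 39.3% ± 1.27 over 16 sites (SD, n = 3, Space and Ground). In the Cyp2d cluster, Cyp2d12 had 31.7% ± 2.52 and 32.8% ± 2.84 (SD, n = 3) over 15 sites.

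Among Cyp3 genes, the 5 with at least 3 sites ranged from 63.0% in Cyp3a16 to 90.6% in Cyp3a59. Cyp3a11, a main drug-metabolizing enzyme of mouse liver, had 73.3, 75.4, and 74.3% in Space GS cells and 72.4, 77.3, and 72.3% in Ground GS cells over 14 sites, and Cyp3a44 had 74.6% ± 2.47 and 74.9% ± 4.30 (SD, n = 3). Cyp3a25 varied more, from 49.3 to 74.6% over the samples, with both extremes in Ground GS cells.

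Among Cyp4 genes, levels beyond 1 kb were spread widely, and 4 of 11 genes were under 10%, 5 were between 10 and 90%, and 2 were over 90%. Cyp4f14, a leukotriene hydroxylase, had 5.45, 9.19, and 0.444% in Space GS cells and 0.488, 1.72, and 0.889% in Ground GS cells over 5 sites. Cyp4f15 had 11.5, 1.19, and 0.752% in Space GS cells and 0.893, 1.79, and 1.90% in Ground GS cells over 7 sites, so that Space 1 alone was high. Cyp4f16 had 97.0, 96.8, and 95.8% in Space GS cells and 97.6, 97.2, and 98.6% in Ground GS cells, without overlap. In its neighbor Cyp4f17, the promoter had 3.28, 3.67, and 2.21% in Space GS cells and 2.01, 0.769, and 1.19% in Ground GS cells over 7 sites, also without overlap, but the difference was 0.0264 percentage points when 20 reads were required per site. Cyp4f37, Cyp4b1, and Cyp4a29 were intermediate and overlapped, with Space minus Ground differences of 0.503, 3.24, and 1.34.

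No cytochrome P450 gene, region, or site was called in tests across the whole table. Methylated and total reads were compared by a quasi-binomial test with moderated dispersion and Benjamini-Hochberg adjustment over all features. At promoters, 0 of 13 members were called at an adjusted p under 0.05, as were 0 of all 14361 genes tested (0%), and 0 members had an unadjusted p under 0.05, compared with 5.31% of all genes. Beyond 1 kb, 0 of 53 members and 0 of 17203 genes (0%) were called, and 2 members, Cyp1a1 and Cyp4f14, had an unadjusted p under 0.05, compared with 5.48% of all genes. The adjusted p of this quasi-binomial test was 0.897 for Cyp1a1. The quasi-likelihood test of edgeR and limma also called 0 members in every test.

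The groups did not overlap in 2 of 13 member promoters (Cyp20a1 and Cyp4f17), compared with 9.55% of all promoters, and in 2 of 53 members beyond 1 kb (Cyp1a1 and Cyp4f16), compared with 9.74% of all genes. Of the 13 promoters, 6 had a higher and 7 a lower value in Space GS cells, with a median difference of -0.0674 percentage points, compared with 0.0892 over all genes tested. Beyond 1 kb, 29 had a higher and 24 a lower value, with a median of 0.503 compared with 0.238.

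Among regions, 0 of 103 with member sites and 0 of all 49134 (0%) were called. Unadjusted p was under 0.05 in 5 member regions, compared with 5.65% of all regions, and the groups did not overlap in 7, compared with 9.25%. The region with the smallest p held 20 of the 22 promoter sites of Cyp20a1 (chr1:60382630-60382960, mm39), which had 1.51, 0.773, and 1.02% in Space GS cells and 1.97, 3.11, and 2.74% in Ground GS cells. In Cyp4v3, 3 sites 333 to 380 bp from the TSS (chr8:45786585-45786633, mm39) had 1.52, 9.52, and 20% in Space GS cells, and 0% in Ground 1 to 3. All 3 sites had the same number of reads within a sample, so the reads per site are counted here. Ground 1 to 3 had 13, 19, and 16 reads per site, in which a count of 0 allows a share of up to 23.1, 15.8, and 18.8%. In Cyp26b1, 17 sites 3376 to 3640 bp downstream (chr6:84567249-84567514, mm39) had 11.6, 5.23, and 0.181% in Space GS cells and 0.687, 1.08, and 0.199% in Ground GS cells, so that the groups overlapped through Space 3. At most sites from 3484 to 3556 bp, Space 1 had 15% and Space 2 had 6.25%. Here too, the same few methylated reads may be counted at each site. The adjusted p of the quasi-binomial test was 0.864 in all 3 regions.

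Space 1 was high in a further region of Cyp26b1. It had 10.1% at 18 sites 5248 to 5385 bp downstream, compared with 0 to 0.743% in the other 5 samples. Space 1 had the same level of 9.09% at most of these sites. The same few methylated reads may therefore be counted at each of them, so the number of sites adds little. The level of Space 1 over all commonly covered sites of the table was 20.3%, within the range of 19.7 to 20.3% of the 6 samples.

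**Figure D5:**
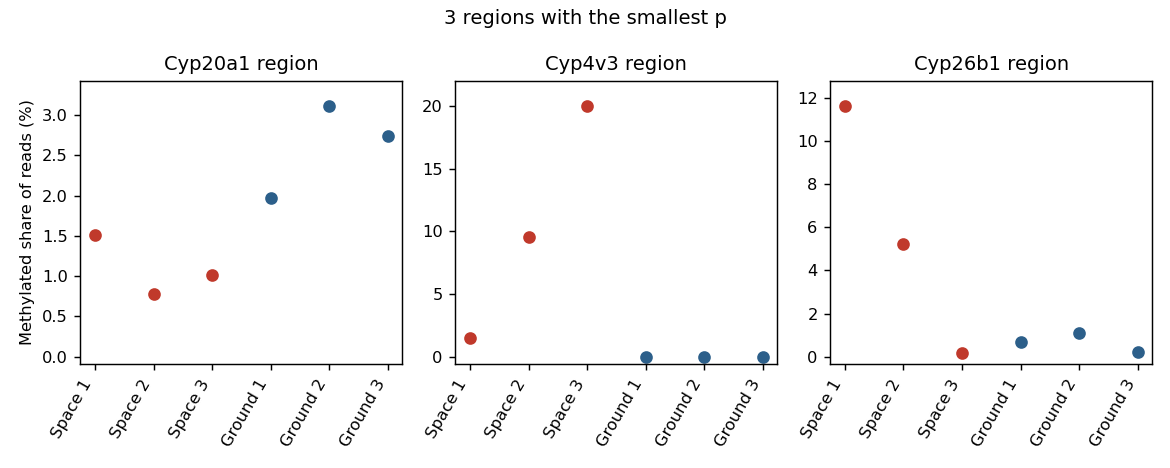
Methylated share of reads (%) in each sample for the 3 cytochrome P450 regions with the smallest p. Points are samples, a read is counted once at each site it covers, and the axes differ in scale; Space 3 is highest in the Cyp4v3 region and lowest in the Cyp26b1 region.

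Single sites were tested if their mean level was 5 to 95%. Of 282 such member sites, 0 were called, as were 0 of 92042 sites (0%), with an unadjusted p under 0.05 at 11 member sites, compared with 5.61% of all sites, and the groups did not overlap at 20 member sites, compared with 9.07%. The group means differed by more than 20 percentage points at 3 of these 282 sites, compared with 1.45% of all sites tested. One site of Cyp4x1 (chr4:115000907, mm39) had 81.8, 62.5, and 60% in Space GS cells and 30, 50, and 62.5% in Ground GS cells. In Cyp2c50, 1 site (chr19:40114063, mm39) had 22.2, 27.3, and 36.8% in Space GS cells and 63.6, 61.1, and 46.7% in Ground GS cells, without overlap. A neighboring site (chr19:40114107) had 61.1, 18.2, and 73.7% in Space GS cells and 27.3, 33.3, and 26.7% in Ground GS cells, in the opposite direction. Each value rested on 10 to 19 reads, and 0 member sites differed by more than 20 percentage points when 20 reads were required.

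A list of 23 genes held electron partners of cytochrome P450 enzymes, nuclear receptors and other regulators, proteins of steroid synthesis such as Star and Srd5a1, and the sterol demethylase Cyp51, which is itself a cytochrome P450 outside the name rule. Of these genes, 12 had at least 3 promoter sites, 11 of them under 10%, and Hnf4a, a liver transcription factor that activates many cytochrome P450 genes, was the exception at 96.5%. The groups did not overlap at 2 of these 12 promoters, compared with 9.55% of all promoters, those of Cyb5r3, a cytochrome b5 reductase (4.15% ± 2.14 and 2.15% ± 0.325), and Rxra, a retinoid X receptor (0.698% ± 0.270 and 1.72% ± 0.0290; SD, n = 3, Space and Ground). Beyond 1 kb, 11 of the listed genes ranged from 14.9 to 98.4%.

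Promoters that are unmethylated in germ cells and methylated in somatic cells were used to check the label. All 8 listed germ cell genes had promoter sites, and the 7 with at least 3 sites (Dazl, Ddx4, Mael, Tdrd1, Sohlh2, Slc25a31, and Taf7l) ranged from 0.740 to 3.23%. The remaining gene, Dpep3, had 32.4, 32.1, and 23.2% in Space GS cells over 2 sites, and 10.8 to 32.4% over the 6 samples. The part of feeder cell DNA in these values was not tested. The reads of each sample, summed over sites, amounted to 28535973 to 33743845, and the median coverage of commonly covered sites was 27 to 32 reads. At this depth, and with 3 samples in each group, a feature without a call is not shown to have equal levels.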

How the data were processed

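DNA methylation was measured by RRBS (Zymo-Seq RRBS kit) in 3 Space and 3 Ground GS cell samples, grouped by their titles. Per the labels, the submitters' processing notes name mm39, Bismark 0.24.2, Trim Galore, and methylKit, and give no settings, so that the treatment of duplicate reads and of reads matching several genes is not given in the sources used here. The authors deposited 1 table holding, for each sample, a coverage count and a methylation percent at every site. Methylated reads were recovered as count times percent, within 0.000266 of a whole read. No 2 sites lay at neighboring positions, so the strands could not be merged further.

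The main set required 10 reads in all 6 samples. Class levels are means of site levels, and gene and region levels are methylated over total reads, in which a read counts once at each site it covers. The quasi-binomial test moderated the Pearson dispersion by squeezeVar (limma 3.58.1, R 4.3.3) and used a threshold of 0.05. On simulated data with changes of 20 percentage points, it called few of the changed sites, a minority of the changed promoters, and none of the changed regions. It called most of the changed genes over 1 kb. These shares were higher with larger changes. The changes were added only to features whose level lay clearly above 0 and not far above the middle of the scale. Most member promoters and many members beyond 1 kb lay outside this range, so the shares do not cover them. Single values were compared by exact permutation tests (scipy 1.17.1), and limits for a count of 0 cover counting error only. Alternatives included coverage minimums of 5 and 20 reads, other borders, weightings, and region gaps, edgeR 4.0.16, limma on log2 ratios with 2 reads added, Fisher's exact test, a replicate block, and leaving out each replicate.

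The members and lists were chosen with earlier results of these data known. Named were the steroid, sterol, and retinoic acid genes with at least 3 sites in a class, the 3 genes per family with the most sites, the 3 highest and 3 lowest genes per class, and the 3 members with the smallest p in each gene and region test. The genes whose sequences are shown, Cyp2c38, Cyp2b13, Cyp2c50, Cyp3a16, Cyp3a59, Cyp4f40, and Cyp4x1 were named after their values were seen. The list of partner, regulator, and steroid pathway genes and the germ cell genes were listed by function. No sequence, exon, or intron was read by coordinates, since the reference used here is GRCm38.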

Additional observations from a re-analysis of the deposited data

How the results depend on the processing

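Leaving out 1 sample moved no direction of the family pairs called or of the comparison with all other sites, but with 5 samples the exact sign-flip test cannot go below 0.0625, so none of these could be called. The ranges without 1 sample were 4.47 to 4.74 (members minus all other sites, 0 to 1 kb), -1.40 to -1.15 (over 1 kb), and, for the pairs within 1 kb, 3.51 to 3.99 (Cyp2 minus steroid and sterol), -2.45 to -1.85 (Cyp2 minus other), 2.81 to 3.71 (Cyp4 minus steroid and sterol), -3.09 to -2.24 (Cyp4 minus other), and -6.04 to -5.64 (steroid and sterol minus other). Over 1 kb, they were -11.1 to -9.88 (Cyp2 minus Cyp3), 8.28 to 8.67 (Cyp2 minus Cyp4), 6.27 to 6.83 (Cyp2 minus steroid and sterol), 46.1 to 46.8 (Cyp2 minus other), 18.3 to 19.7 (Cyp3 minus Cyp4), 16.7 to 17.5 (Cyp3 minus steroid and sterol), 56.6 to 57.6 (Cyp3 minus other), -2.24 to -1.57 (Cyp4 minus steroid and sterol), 37.8 to 38.2 (Cyp4 minus other), and 39.7 to 40.1 (steroid and sterol minus other). The Space minus Ground difference over 1 kb ranged from -0.312 to 0.880 in Cyp2, -0.276 to 2.31 in Cyp3, and -0.0167 to 1.16 in Cyp4. The site test called 0 to 3 sites of the table, none of them a member (1 without Space 2, 3 without Space 3, 3 without Ground 1). Member sites over 20 percentage points numbered 3 to 9 higher and 1 to 3 lower.

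Other settings turned Space minus Ground differences that were not called. With 20 reads, Cyp4 had -1.11 within 1 kb and -0.316 over 1 kb, and Cyp2 had -0.207 over 1 kb. With 5 reads, Cyp4 had -0.277 over 1 kb. With each gene weighted equally, Cyp4 had -1.02 within 1 kb and Cyp2 had -0.226 over 1 kb. With a border of 2 kb, all members had 0.0660 on the near side.

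The settings below, except the distance bins, were added to the comparison with other sites and to the family pairs after the data were seen. Members minus all other sites over 1 kb turned to 0.977 within distance bins, 2.42 with 5 reads, 0.576 with 20 reads, 2.99 with pooled reads, 6.50 with a border of 500 bp, and 1.67 with all Cyp names, and was -0.468, without a call, with genes weighted equally. Within 1 kb, Cyp2 minus Cyp4 became 2.42 with 5 reads, -1.10 with 20 reads, -12.7 with genes weighted equally, 2.53 with a border of 500 bp, and 2.32 with 2 kb. Cyp2 minus steroid and sterol became -2.38 with 20 reads and 0.113 with genes weighted equally. Cyp2 minus other became 0.614 with 5 reads, -1.88 with pooled reads, 9.51 with genes weighted equally, 3.93 with a border of 2 kb, and -0.159 with all Cyp names. Cyp4 minus steroid and sterol became -1.28 with 20 reads, 1.07 with a border of 500 bp, and 1.40 with 2 kb. Cyp4 minus other became -1.81 with 5 reads, 22.2 with genes weighted equally, 1.61 with a border of 2 kb, and -1.07 with all Cyp names. Steroid and sterol minus other became 9.40 with genes weighted equally and 0.213 with a border of 2 kb. Over 1 kb, Cyp2 minus Cyp3 became 6.56 and Cyp3 minus steroid and sterol became -0.874 with genes weighted equally, and with a border of 2 kb, Cyp2 minus steroid and sterol became -9.93 and Cyp3 minus steroid and sterol became 0.669. Cyp4 minus steroid and sterol over 1 kb became 3.38 with 5 reads, 22.9 with 20 reads, 5.73 with pooled reads, -0.551 with a border of 500 bp, and 0.143 with all Cyp names. The cause was not tested. Merging the strands of a CpG gave no value, since no neighboring positions were listed.

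Fisher's exact test on the summed reads of each group, blind to the spread between replicates, called 3300 promoters (2 members), 1237 genes over 1 kb (3 members), and 6196 regions (13 members). Member sites over 20 percentage points were 10 higher and 8 lower with 5 reads, and 0 and 0 with 20 reads. Whether the replicate numbers in the titles mark pairs was not settled. The deviations of same-numbered samples correlated by 0.0439, 0.0220, and 0.00988. Space 1 and Space 2 correlated best with the Ground sample of their own number, and Space 3 with Ground 2 (0.0146). The remaining different-numbered pairs had -0.0367 to -0.00114. The level of all other sites fell from replicate 1 to replicate 3 in both groups. A shared origin or batch of same-numbered samples was not tested. With the replicate block, 0 sites, promoters, genes over 1 kb, and regions were called, and the class differences were the same by construction, with exact sign-flip p from 0.25 to 1, where 3 pairs cannot go below 0.25. Of 42 named gene values, 27 turned under at least 1 alternative (62 of 375 alternatives).

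Depth limits single sites. Members had at most 84 reads per site and sample, and 401 of the 839 sites had 20 reads in all samples.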
